A study of Mus musculus with 9 samples.

Results

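The genes of retinoic acid synthesis and response described here are Aldh1a1, Aldh1a2, Aldh1a3, Rdh10, Dhrs3, Crabp2, Stra6, Cyp26b1 and Rarb. They were chosen by name as the enzymes, carriers, transporter and receptor that make, move, sense and remove retinoic acid. Earlier results of these data were known by then, and all 9 were found among the 26214 genes of the deposited table. RNA was sequenced from ASCs (stromal progenitors of the subcutaneous adipose tissue, ScAT) and from FAPs (fibro-adipogenic progenitors of the quadriceps muscle) of C57Bl/6 J mice on day 1 after an injection into the quadriceps. ASCs (3 libraries) and FAPs (2 libraries) came from mice given NaCl, which served as the non-injured control, and injured FAPs (3 libraries) came from mice given glycerol, which damages the myofibers. CD31+CD45+ cells of glycerol-injected quadriceps gave 1 library, which was left out of the tests. Each library held between 24052508 and 27481573 reads on genes in the 8 libraries compared, and 13091077 in the CD31+CD45+ library.

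The mice were males, 8 to 12 weeks old according to the methods of the study, and glycerol was given at 50% in saline. ASCs and FAPs were depleted of CD31+ and CD45+ cells on magnetic beads and then selected for Sca-1. The methods describe triplicates from a pool of cells of 3 animals, which may mean a pool for each library or a single pool split into libraries. The spread between libraries is then a spread between pools or within a single pool. Part or all of it may be technical, and p-values measure only that spread. ASCs and FAPs differ in tissue as well as in cell type, and these cannot be told apart.

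Cells take up vitamin A as retinol, for which STRA6 is a membrane receptor. Retinol is oxidised to retinal in a reversible step, by RDH10 in the forward direction and by DHRS3 in the reverse direction, and retinal is then oxidised irreversibly to retinoic acid by the ALDH1A enzymes. Retinoic acid is carried to the nucleus by CRABP2, binds the receptors RARA, RARB and RARG, which pair with RXR proteins on response elements of direct repeats, and is broken down by the CYP26 enzymes. It is known as a signal that restrains the adipogenic differentiation of mesenchymal progenitors.

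Markers of the sort and of stromal progenitors were checked first. Pdgfra, a progenitor marker outside the sort, lay between 10837 and 25268 normalised read counts in the 8 libraries and Ly6a, which encodes Sca-1, between 10823 and 49855. Ptprc, which encodes CD45, was at 0 in ASC libraries 1 and 3 and in both FAP libraries, and reached 55.8 in injured FAP library 2. Pecam1, which encodes CD31, was at 0 in FAP library 2 and at most 269 elsewhere, against 45323 in the CD31+CD45+ library. Values are the authors' normalised read counts, and a library's value of 1 read was between 0.763 and 1.32 in the 8 libraries.

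Response elements for the retinoic acid receptors give the sequence context of the response genes, and the promoters of Rarb and Cyp26a1 are shown because they hold the element of the DR5 type, a direct repeat with 5 bases between its parts. RefSeq promoter windows of 300 bases (GRCm38.p6, from 250 bases before the start site to 50 bases after it) were matched by symbol for 6 of the 9 genes, Aldh1a1, Aldh1a2, Dhrs3, Stra6, Cyp26b1 and Rarb, with 12 windows in all. The windows were searched on both strands for the hexamer AGGTCA, for the hexamer GGTTCA and for the hexamer AGTTCA. They were also searched for DR1, DR2 and DR5, direct repeats of these hexamers or of the hexamer GGGTCA, in any pair, with 1, 2 and 5 bases in between. A DR5 contains 2 such elements and can therefore also be counted under the single hexamers. A DR5 was present in 32 of 32851 promoters of mouse genes (0.0974%), and the Rarb window was the only window of the 9 genes to hold it. The other retinoid genes listed below had 55 windows, for 39 of 50 genes, of which the Cyp26a1 window held a DR5. The Rarb window lies at chr14:16575427-16575726 on the minus strand and its DR5, from 53 to 37 bases before the start site, reads on the strand of the gene. The Cyp26a1 window lies at chr19:37697558-37697857 on the plus strand and its DR5, from 32 to 16 bases before the start site, reads on the opposite strand. Capitals mark the DR5.
Rarb: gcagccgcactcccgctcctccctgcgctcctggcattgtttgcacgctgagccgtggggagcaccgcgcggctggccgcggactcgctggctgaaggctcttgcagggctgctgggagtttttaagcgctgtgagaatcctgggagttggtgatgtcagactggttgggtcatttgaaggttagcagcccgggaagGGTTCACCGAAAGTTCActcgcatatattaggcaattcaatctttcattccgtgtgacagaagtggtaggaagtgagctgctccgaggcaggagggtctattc
Cyp26a1: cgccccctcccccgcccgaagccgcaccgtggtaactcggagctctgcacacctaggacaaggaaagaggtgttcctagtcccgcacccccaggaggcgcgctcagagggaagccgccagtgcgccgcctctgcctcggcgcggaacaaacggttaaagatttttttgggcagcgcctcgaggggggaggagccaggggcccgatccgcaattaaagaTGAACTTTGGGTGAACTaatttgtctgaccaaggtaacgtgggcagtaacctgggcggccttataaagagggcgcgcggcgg

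No window of the 9 genes held AGGTCA, which is in 16.3% of all promoters. GGTTCA was in the Rarb window and in 10.4% of all promoters, AGTTCA in the windows of Rarb and Stra6 and in 14% of all promoters. DR1 (0.222% of promoters) and DR2 (0.268%) were in no window of the 9 genes. These matches describe letters in a window and not binding.

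The comparison of ASCs with FAPs of NaCl-injected mice asks how progenitors of fat and of muscle differ without injury, and that of injured FAPs with FAPs asks what injury changes in FAPs. Both use the same FAP libraries, so their values are given side by side. The test was limma on the log2 scale, with p-values adjusted after Benjamini-Hochberg across the 13601 genes whose mean over the 8 libraries reached 10, all 9 genes among them. Called genes had a log2 fold change larger than 0.58 in size with an adjusted p below 0.05. In ASCs against FAPs 8 of 9 genes were called, with 4 higher (Aldh1a1, Aldh1a3, Rdh10 and Rarb) and 4 lower (Aldh1a2, Dhrs3, Crabp2 and Stra6). Over all genes tested 47.2% were called in that comparison (23.4% higher and 23.8% lower). In injured FAPs against FAPs 6 of 9 were called, with 3 higher (Aldh1a2, Aldh1a3 and Rdh10) and 3 lower (Dhrs3, Crabp2 and Stra6), against 52.6% of all genes (24.9% higher and 27.7% lower). In injured FAPs against ASCs all 9 were called, with 6 higher and 3 lower (Aldh1a1, Aldh1a3 and Rarb), against 50.8% of all genes (25.0% higher and 25.8% lower). The median size of the log2 fold change of the 9 genes, without its sign, was 2.25, 1.15 and 1.62 in these comparisons, and 0.60, 0.70 and 0.65 over all genes tested. Since the 9 genes were chosen with earlier results of these data known, these shares and sizes describe them and are no independent test.

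**Figure D1:**
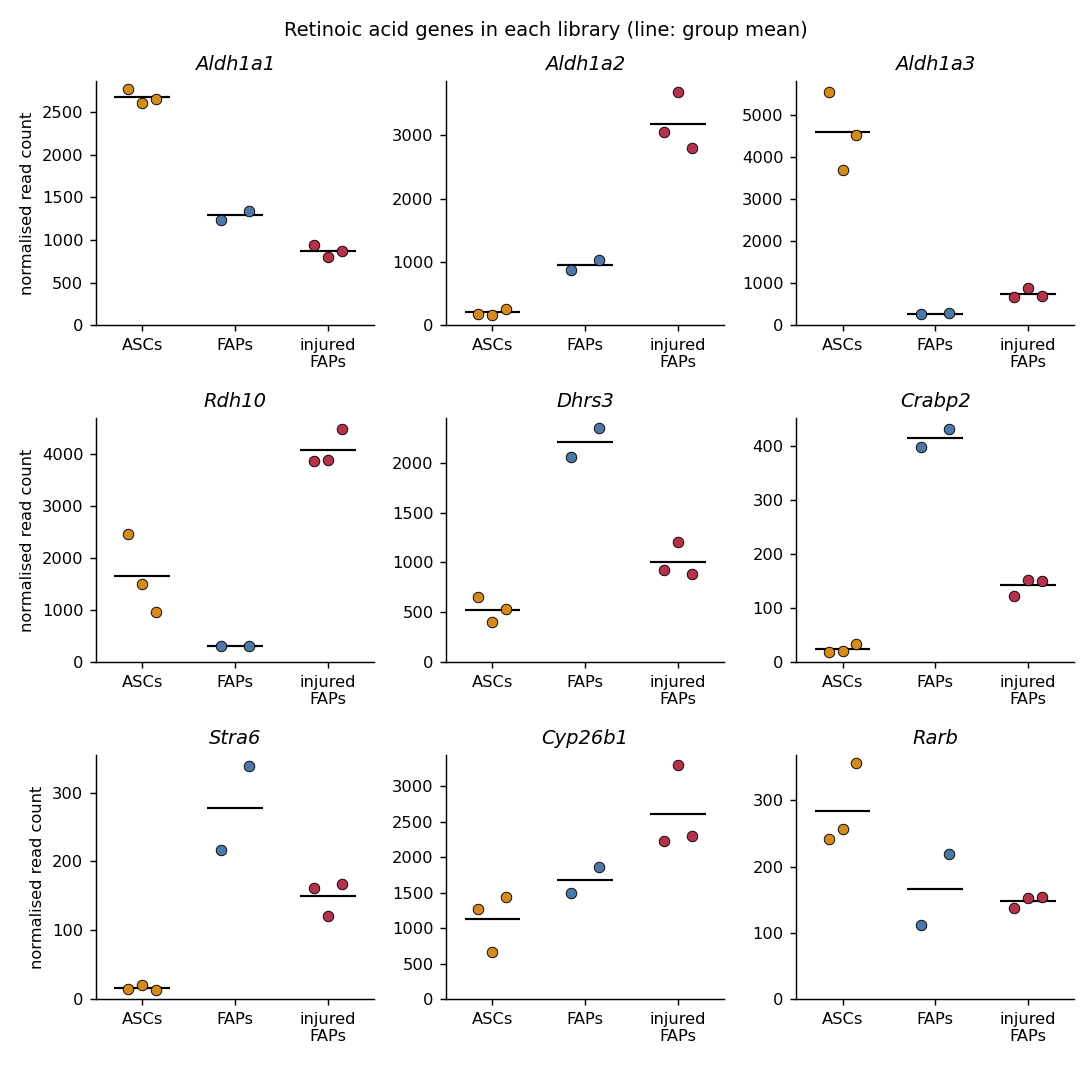
Normalised read count (vertical axis, from 0, a scale of its own for each gene) of the 9 genes in 3 ASC, 2 FAP and 3 injured FAP libraries, each point a library and each line a group mean. Aldh1a3 is highest in ASCs, Aldh1a2 and Rdh10 in injured FAPs and Dhrs3, Crabp2 and Stra6 in FAPs.

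**Figure D2:**
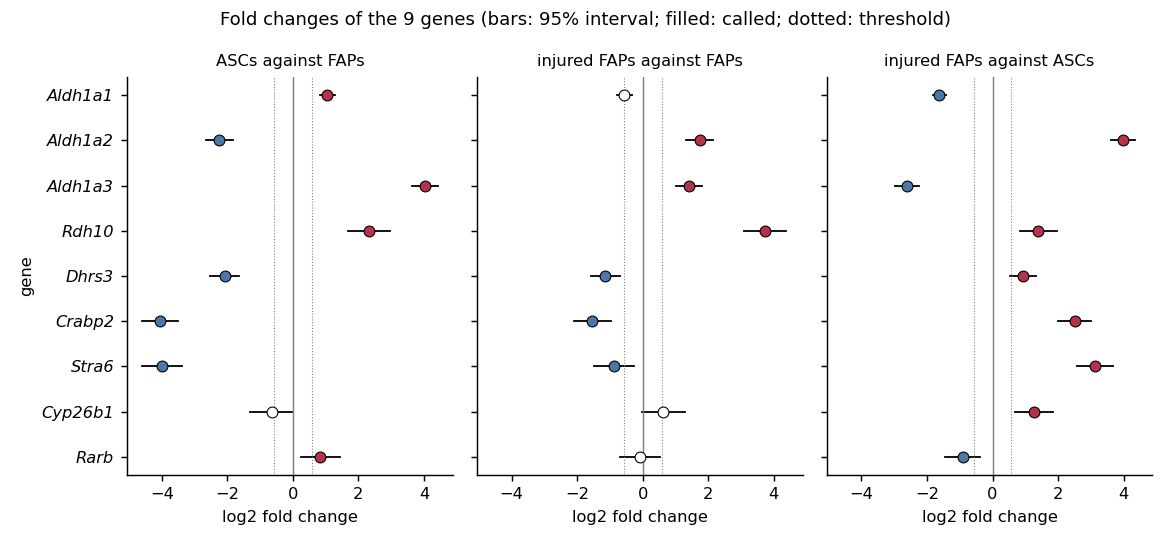
Log2 fold change of each gene (horizontal axis) in the 3 comparisons, with 95% intervals as bars, filled points for called genes (red higher, blue lower) and dotted lines at the threshold of 0.58. Rdh10 lies to the right in all 3 comparisons, while Crabp2 and Stra6 lie to the left against FAPs in both.

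The ALDH1A enzymes make retinoic acid from retinal, and the leading gene differed between ASCs and injured FAPs. Aldh1a3 (chr7:66390890-66427517 in GENCODE M21) stood at 5555, 3693 and 4538 in the ASC libraries, at 255 and 297 in the FAP libraries and at 670.1, 878 and 692 in the injured FAP libraries. All ASC libraries lay far above all others, and the injured FAP libraries lay above both FAP libraries without overlap. It was 16.4-fold higher in ASCs than in FAPs (log2 fold change 4.04, SE 0.18, limma adjusted p = 9.9e-08) and 2.69-fold higher in injured FAPs than in FAPs (log2 fold change 1.43, SE 0.18, limma adjusted p = 5.9e-05). Between injured FAPs and ASCs the log2 fold change was −2.61. In a bulk library fewer cells that express a gene and less RNA of it per cell cannot be told apart, here and for each gene below.

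Aldh1a2 (chr9:71215789-71296243) had another order of the groups. It measured 182, 168 and 256 in ASCs, 864 and 1033 in FAPs and 3059, 3684 and 2808 in injured FAPs. The groups did not overlap, with injured FAPs highest and ASCs lowest. It was 3.34-fold higher in injured FAPs than in FAPs (log2 fold change 1.74, SE 0.19, limma adjusted p = 2.2e-05), and its log2 fold change in ASCs against FAPs was −2.25 (SE 0.19, limma adjusted p = 4.8e-06). Between injured FAPs and ASCs the difference was 15.9-fold.

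Aldh1a1 (chr19:20492715-20643465), the remaining enzyme of the family, was highest in ASCs. It measured 2770.4, 2608 and 2663 in ASCs, 1240.0 and 1339.7 in FAPs and 938, 806 and 876 in injured FAPs. The groups fell in the order ASCs, FAPs, injured FAPs with no overlap. It was 2.08-fold higher in ASCs than in FAPs (log2 fold change 1.06, limma adjusted p = 1.1e-05). In injured FAPs against FAPs its log2 fold change was −0.56 (95% interval −0.79 to −0.34, limma adjusted p = 0.00066), which is under the fold threshold. It passed that threshold without FAP library 1 (−0.62), without injured FAP library 1 (−0.62), with quantile normalization (−0.70) and with a common 75th percentile (−0.66).

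Mice carry a close relative of Aldh1a1, Aldh1a7, whose transcripts share 281 of the 4934 windows of 31 bases in Aldh1a1, and 0 windows as long as a read. Aldh1a7 was between 11.9 and 17.6 in ASCs, at 0.951 and 5.64 in FAPs and at most 0.785 in injured FAPs, which are 0 to 14 reads a library, and it was under the filter on low values. Its values were far below those of Aldh1a1 in each library.

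Levels of different genes were compared per kilobase of exon. Per kilobase of all annotated exons the summed level of Aldh1a1, Aldh1a2 and Aldh1a3 stood at 1627 ± 221 (SD, n = 3) for ASCs. It stood at 740.1 ± 73.4 (SD, n = 2) for FAPs and at 1745 ± 212 (SD, n = 3) for injured FAPs. The sum was lowest in FAPs, and on this scale ASCs and injured FAPs differed by less than their SDs. With values scaled to the library total FAPs were still lowest, but each injured FAP library lay above each ASC library. In ASCs Aldh1a3 made up 60.8% ± 4.13 (SD, n = 3) of the sum, compared with 8.08% ± 0.077 (SD, n = 2) for FAPs and 9.26% ± 0.563 (SD, n = 3) for injured FAPs. Aldh1a2 made up 5.52% ± 1.30 (SD, n = 3) in ASCs, 55.5% and 57.6% in the FAP libraries and 80.5% ± 1.54 (SD, n = 3) in injured FAPs. Aldh1a1 made up 33.7%, 35.4% and 10.3% in the same order. The make-up of the sum thus differed between ASCs and injured FAPs, and the shares of Aldh1a2 and Aldh1a3 did not overlap between ASCs and either FAP group.

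The length used moves these shares. Per kilobase of the longest transcript Aldh1a3 still led in ASCs by its mean share (51.8%), though not in ASC library 2 (47.6% against 49.1% for Aldh1a1), and Aldh1a2 in injured FAPs (70.4%), but in FAPs Aldh1a1 led with 52.4% over Aldh1a2 with 40.0%, so the leading gene of FAPs depends on which transcripts are used. On that scale the sum stood at 2561 ± 308 (SD, n = 3) for ASCs, 1046 ± 91.3 (SD, n = 2) for FAPs and 1993 ± 209.9 (SD, n = 3) for injured FAPs. ASCs were thus above injured FAPs there, with no overlap of their libraries. This order depends on the scaling. With values scaled to the library total it turned, and each injured FAP library lay above each ASC library. The lengths are those of GENCODE M21 and not of the annotation the authors counted with.

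**Figure D3:**
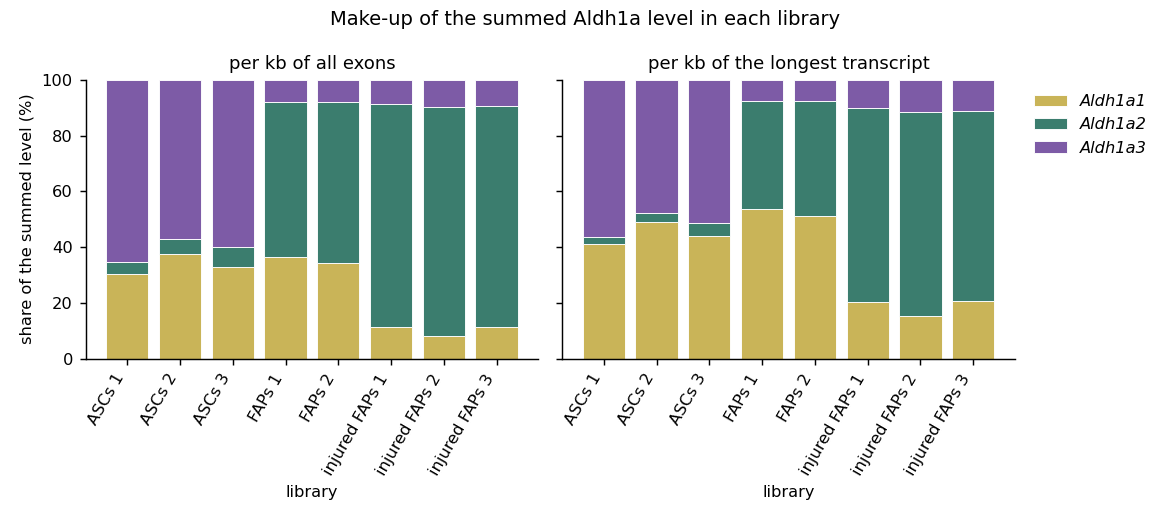
Share (%) of each Aldh1a gene in the summed level per kilobase in each of the 8 libraries, per kilobase of all exons (left) and of the longest transcript (right). In both panels Aldh1a3 is the largest share in each ASC library but ASC library 2 on the right, where Aldh1a1 is larger, and Aldh1a2 is the largest in each injured FAP library.

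Rdh10 (chr1:16105774-16133734), the retinol dehydrogenase of the forward step, had the largest fold change of the 9 genes in injured FAPs against FAPs. It measured 2467, 1515 and 974 in ASCs, 305 and 309 in FAPs and 3867, 3891 and 4489 in injured FAPs. The FAP libraries were alike and lowest, the injured FAP libraries highest, and the ASC libraries lay in between and were widely spread, at 1652 ± 756 (SD, n = 3). It was 13.2-fold higher in injured FAPs than in FAPs (log2 fold change 3.73, SE 0.29, limma adjusted p = 2.8e-06) and higher in ASCs than in FAPs (log2 fold change 2.32, SE 0.29, limma adjusted p = 7.4e-05). Injured FAPs were above ASCs by a log2 fold change of 1.40, by 1.74 without ASC library 1 and by 1.07 without ASC library 3.

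Dhrs3 (chr4:144892827-144928209), the reductase of the reverse step, was highest in FAPs, where Rdh10 was lowest. It measured 651, 403 and 532 in ASCs, 2062 and 2349 in FAPs and 920.4, 1201 and 889 in injured FAPs. ASCs were lowest, and the groups did not overlap. Against FAPs its log2 fold change was −2.08 in ASCs (SE 0.20, limma adjusted p = 1.1e-05) and −1.15 in injured FAPs (SE 0.20, limma adjusted p = 0.00051). Per kilobase of all exons the FAP level of Dhrs3 was 753 ± 69.5 (SD, n = 2) and that of Rdh10 73.8 ± 0.568 (SD, n = 2), and in injured FAPs Rdh10 was at 981 ± 84.6 (SD, n = 3) and Dhrs3 at 343 ± 58.7 (SD, n = 3). The order of the forward and the reverse enzyme thus differed between FAPs and injured FAPs, and it was the same per kilobase of the longest transcript. In ASCs Rdh10 was at 397 ± 182 (SD, n = 3) and Dhrs3 at 181 ± 42.3 (SD, n = 3) per kilobase of all exons.

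Crabp2 (chr3:87948666-87953376), the carrier of retinoic acid to its receptors, was a gene of the FAP libraries. It measured 19.8, 20.4 and 33.9 in ASCs, from 15 to 27 reads, 397 and 429.9 in FAPs and 123, 153 and 150.3 in injured FAPs. The groups did not overlap, and ASCs were close to the low end of what was tested. Its log2 fold change against FAPs was −4.06 in ASCs (SE 0.25, limma adjusted p = 7.4e-07) and −1.54 in injured FAPs (SE 0.25, limma adjusted p = 0.00037). Stra6 (chr9:58063788-58153996), the retinol receptor of the membrane, followed the same order. It measured 14.5, 20.4 and 13.8 in ASCs, from 11 to 18 reads, 217 and 338 in FAPs and 162, 121 and 167 in injured FAPs. All ASC libraries were far below the rest, and the FAP libraries differed widely from each other while both stayed above the injured FAP libraries. Its log2 fold change against FAPs was −4.00 in ASCs (SE 0.27, limma adjusted p = 1.4e-06) and −0.86 in injured FAPs (SE 0.27, limma adjusted p = 0.018). The call in injured FAPs was lost without FAP library 2 (−0.54), without injured FAP library 2 (−0.72) and with values scaled to the library total (−0.73), a scaling chosen after seeing the data.

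Among the 8 libraries compared, genes of other cell types were highest in the same libraries as Crabp2, Stra6 and Dhrs3. Of 6 smooth muscle and pericyte genes all 6 were called lower in ASCs than in FAPs and 5 lower in injured FAPs, where 23.8% and 27.7% of all genes tested were called lower. Their summed value was 1353, 819 and 913 in ASCs, 21379 and 19002 in FAPs and 9812, 9341 and 9792 in injured FAPs, and none of them was at 0 in any library. The most abundant gene of the list was Notch3 in ASCs, Rgs5 in FAP library 1, Acta2 in FAP library 2 and Cspg4 in injured FAPs.

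The 3 tenocyte genes, led by Tnmd in each library, summed to 130.4, 157 and 211 in ASCs, 4632 and 5439 in FAPs and 2172, 2021 and 2072 in injured FAPs. The 8 skeletal muscle fibre genes summed to 179, 138 and 174 in ASCs, 801 and 973 in FAPs and 294, 304 and 241 in injured FAPs. The most abundant was Tnnt3 in ASCs, FAP library 2 and injured FAP library 3 and Acta1 in the others, and of 7 tested 6 were called lower in ASCs and 5 lower in injured FAPs, beside the same 23.8% and 27.7% of all genes. All 3 tenocyte genes were called lower in ASCs than in FAPs and 2 of them lower in injured FAPs. The 4 satellite cell genes summed to at most 5.66 in ASCs, to 65.6 and 128 in FAPs and to between 35.8 and 50.2 in injured FAPs, with Pax7 at 0 in ASCs. Over the 8 libraries compared these lists moved with Crabp2, Stra6 and Dhrs3. In the unreplicated CD31+CD45+ library they summed to 86615 (smooth muscle and pericyte), 455 (tenocyte), 3283 (muscle fibre) and 491 (satellite cell). Crabp2 was at 23.5, Stra6 at 62.8 and Dhrs3 at 5215 there. The part of these lists in the results of those genes was not tested.

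Over the 8 libraries compared the summed endothelial genes followed the order of Crabp2, Stra6 and Dhrs3 only with Tek left out. The sum of 10 was 6584, 5207 and 6976 in ASCs, 6972 and 4723 in FAPs and 1897, 2048 and 1603 in injured FAPs, and Tek was the most abundant in ASCs and FAPs and Cdh5 in injured FAPs. Without Tek the sum of the other 9 was 598, 366 and 276 in ASCs, 4851 and 2833 in FAPs and 1502, 1682 and 1239 in injured FAPs, with no overlap. Of 9 tested, 5 were called lower and 3 higher in ASCs than in FAPs, and 5 lower and 2 higher in injured FAPs, beside 23.8% lower and 23.4% higher and then 27.7% lower and 24.9% higher of all genes. Vwf, Emcn and Cldn5 were at 0 in both FAP libraries. The part of endothelial RNA in Crabp2, Stra6 and Dhrs3 was not tested.

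Among the 8 libraries compared the summed leukocyte genes were highest in injured FAPs. The sum of 10 was 473, 404 and 382 in ASCs, 265 and 497 in FAPs and 632, 2848 and 547 in injured FAPs. In FAPs 7 of the 10 were at 0 and Cd68 gave nearly all of the sum (254 and 477), and without Cd68 the sum was 11.4 and 19.8 in FAPs, 298, 256 and 177 in ASCs and 421, 2296 and 364 in injured FAPs. Of 8 tested, 6 were called higher in injured FAPs against FAPs, where 24.9% of all genes were called higher. No fold is given, since 7 of the 10 were at 0 in FAPs. Cd68 itself was lower in injured FAP libraries 1 and 3 (212 and 183) than in both FAP libraries. Aldh1a2, Aldh1a3 and Rdh10 were also higher in injured FAPs. In the CD31+CD45+ library the leukocyte sum was 31004, with Aldh1a2 at 48.7, Aldh1a3 at 102 and Rdh10 at 317. The part of leukocyte RNA in those genes was not tested. Injured FAP library 2 stood apart, led by Lyz2, and it also held the highest values of Aldh1a2, Aldh1a3, Dhrs3, Crabp2 and Cyp26b1 among injured FAPs. Without it Aldh1a3 in injured FAPs against FAPs had a log2 fold change of 1.30 and Cyp26b1 of 0.44, and the part of these cells in those values was not tested.

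Within ASCs the sum of 8 mesothelial genes had the order of Aldh1a3, at 1191, 58.9 and 385, against at most 84.7 in the FAP and injured FAP libraries. Krt8 was the most abundant of them in ASC libraries 1 and 3 and Krt19 in ASC library 2, where Krt8, Krt18, Lrrn4 and Upk1b were at 0 and Aldh1a3 was still at 3693. Keratins gave most of the sum in ASC library 1 (Krt8 483, Krt18 348 and Krt19 336). Msln went the other way, at 10.5, 4.53 and 11.3 in ASCs, 23.8 and 34.8 in FAPs and 36.1, 38.7 and 54.9 in injured FAPs. Of 4 tested, 2 were called higher and 1 lower in ASCs than in FAPs, beside 23.4% and 23.8% of all genes. Without ASC library 1 the log2 fold change of Aldh1a3 in ASCs against FAPs was 3.89. The 4 adipocyte genes summed to between 96.3 and 113 in ASCs, led by Plin1 or Adipoq, and to at most 21.6 in the other groups. The 6 Schwann and perineurial genes, led by Slc2a1 except in FAP library 2, summed to between 2135 and 4794 in ASCs, 1462 and 1973 in FAPs and between 2465 and 3095 in injured FAPs. Only Slc2a1 put ASCs above FAPs there, and without it the sum of the other 5 was between 221 and 498 in ASCs, 941 and 1423 in FAPs and between 445 and 728 in injured FAPs. Of the 6 genes 5 were called lower in ASCs than in FAPs and 1 higher, beside 23.8% lower and 23.4% higher of all genes. The part of these lists in the ASC values was not tested.

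**Figure D4:**
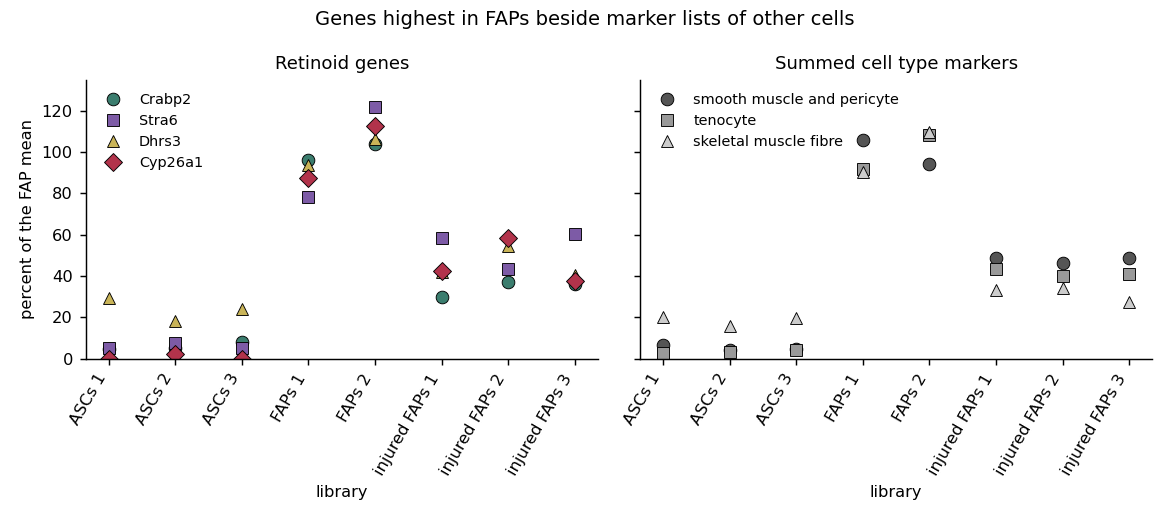
Value in each library as a percentage of the mean of the 2 FAP libraries (vertical axis) for Crabp2, Stra6, Dhrs3 and Cyp26a1 (left) and for the summed markers of 3 other cell types (right), genes and lists chosen after their values were seen. Injured FAPs lie between 27.2% and 60.2% of the FAP mean in both panels, and ASCs between 0% and 29.5%.

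Cyp26b1 (chr6:84571414-84593908) encodes an enzyme that breaks down retinoic acid. It measured 1278, 661 and 1439 in ASCs, 1491 and 1867 in FAPs and 2234, 3301 and 2296 in injured FAPs. The values rose in the order ASCs, FAPs, injured FAPs with no overlap, and each step missed the call. Its log2 fold change against FAPs was −0.64 in ASCs (95% interval −1.30 to 0.01, limma adjusted p = 0.083) and 0.62 in injured FAPs (95% interval −0.04 to 1.28, limma adjusted p = 0.087). Injured FAPs were called above ASCs by 1.27 (SE 0.26, limma adjusted p = 0.0017). In ASCs it was called lower than in FAPs without ASC library 1 (−0.77) or 3 (−0.86), with quantile normalization (−0.87), with a common 75th percentile (−0.85) and with values scaled to the library total (−1.21). Without ASC library 2, the lowest of the ASC libraries, the log2 fold change shrank to −0.30 and was not called. In injured FAPs it was called higher without ASC library 2 (0.62), in a fit of FAPs and injured FAPs alone (0.62), with DESeq2 (0.66) and with values scaled to the library total (0.75).

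Rarb (chr14:16430839-16819156), the receptor that is itself induced by retinoic acid, had the lowest level per kilobase of all exons of the 9 genes in FAPs. It measured 241, 256 and 355 in ASCs, 112 and 219 in FAPs and 137, 153 and 155 in injured FAPs. ASCs were above all other libraries, and the FAP libraries spanned the injured FAP libraries. Its log2 fold change was 0.83 in ASCs against FAPs (SE 0.27, limma adjusted p = 0.021), −0.08 in injured FAPs against FAPs (95% interval −0.68 to 0.52, limma adjusted p = 0.80) and −0.91 in injured FAPs against ASCs (SE 0.24, limma adjusted p = 0.0066). The higher level in ASCs rested on single libraries, since the call was lost without FAP library 1 (0.35) and without ASC library 3 (0.66), and also with a common 75th percentile (0.62) and with values scaled to the library total (0.27). Without FAP library 2 the log2 fold change rose to 1.31. The call of injured FAPs against ASCs was lost with values scaled to the library total (−0.22). Of its annotated exons 34.1% overlap Top2b on the other strand, and the strand setting of the counting was not given in the sources used here, so reads in that stretch cannot be told apart. The mean of Top2b was 2106 ± 281 (SD, n = 3) for ASCs, 1966 ± 229.5 (SD, n = 2) for FAPs and 2483 ± 199.9 (SD, n = 3) for injured FAPs.

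The other retinoid genes were a list of 50 by role, of which 36 passed the filter on low values. In ASCs against FAPs 20 of these were called (11 higher, 9 lower), as were 16 in injured FAPs against FAPs (5 higher, 11 lower) and 20 in injured FAPs against ASCs (7 higher, 13 lower). These are shares of 55.6%, 44.4% and 55.6%, beside 47.2%, 52.6% and 50.8% of all genes tested, and the median log2 fold changes were −0.09, −0.44 and −0.26, against 0.00, −0.05 and 0.02 over all genes. Genes under the filter, which included Lrat, Rbp7 and Cyp26c1, were at most at 9.41 in the 8 libraries compared.

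Among retinoic acid and retinol binders, Crabp1 was the gene with the largest rise after injury in the list. It measured 5.27, 15.9 and 8.79 in ASCs, 36.1 and 24.5 in FAPs and 404, 473 and 400.4 in injured FAPs. Injured FAPs were far above the rest, with a log2 fold change of 3.79 over FAPs (SE 0.38, limma adjusted p = 1.3e-05), opposite in direction to Crabp2. Fabp5 rose as well (log2 fold change 1.63, limma adjusted p = 0.00039), to 133, 161 and 116 in the injured FAP libraries. In the CD31+CD45+ library Fabp5 was at 2817 and Crabp1 at 0. The part of other cells in the rise of Fabp5 was not tested. Rbp4, which binds retinol, was lower in both ASCs and injured FAPs than in FAPs (log2 fold changes −1.04 and −1.02).

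Enzymes of retinol and retinal moved in both directions. Of 12 tested, 5 were higher and 2 lower in ASCs than in FAPs, and 2 were higher and 3 lower in injured FAPs than in FAPs. These are 58.3% and 41.7% called, beside 47.2% and 52.6% of all genes. The split in ASCs depends on the scaling. With values scaled to the library total Rdh13 lost its call as higher (0.45). Adh1 (−1.13), Adh5 (−0.70), Rdh14 (−0.75) and Rdh11 (−0.65) were then called lower in ASCs than in FAPs. Adh7, an alcohol dehydrogenase, was at 900.4 in ASCs, 137 in FAPs and 102 in injured FAPs as group means, and Dhrs9, a retinol dehydrogenase, at 553, 112 and 90.0. Their log2 fold changes in ASCs against FAPs were 2.75 and 2.29. Rdh11, a retinal reductase, was highest in injured FAPs at 1074, against 391 in FAPs and 371 in ASCs (log2 fold change 1.45 over FAPs, limma adjusted p = 2.4e-06). Bco2, which cleaves carotenoids, was at 246 in ASCs, 31.2 in FAPs and 9.29 in injured FAPs.

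Cyp26a1, like Rarb a textbook response gene with a DR5 in its promoter, had another order of the groups than Rarb. It measured 0, 2.27 and 0 in ASCs, which is 2 reads in all, 89.4 and 115 in FAPs and 43.2, 59.7 and 38.1 in injured FAPs. ASCs were at or under the limit of 3 reads a library, where Rarb was at its highest, and FAPs were highest. It was called lower in ASCs than in FAPs (limma adjusted p = 7.7e-06), and no fold is given against a group at that limit. In injured FAPs against FAPs its log2 fold change of −1.12 was not called by limma (Benjamini-Hochberg adjusted p = 0.095), and it was called lower with DESeq2 (−1.10), edgeR (−1.08), without ASC library 2 (−1.12), in a fit without the ASCs (−1.12) and with 8 added to each value (−1.01).

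Of the 5 other receptors 1 was called lower in ASCs than in FAPs and 3 were called lower in injured FAPs, beside 23.8% and 27.7% of all genes, and none was called higher. Rarg was at 5956 in ASCs and 6009 in FAPs, and at 1999 in injured FAPs as group means, a log2 fold change of −1.59 in injured FAPs against FAPs (SE 0.13, limma adjusted p = 3.5e-06). In ASCs it was called lower than in FAPs with quantile normalization (−0.60) and with values scaled to the library total (−0.59). Rara was lower in both comparisons, with log2 fold changes of −1.26 in ASCs and −0.90 in injured FAPs. Rxrg was lower in injured FAPs than in FAPs (log2 fold change −1.33, limma adjusted p = 0.0026). Rxra and Rxrb had log2 fold changes of −0.43 and −0.41 in injured FAPs, under the fold threshold, and were called lower in ASCs with values scaled to the library total (−0.64 and −0.75), as was Rxra in injured FAPs with quantile normalization (−0.59). Rxrg was called lower in ASCs under the library total too (−1.03), so that all 5 receptors were called lower there. Of 6 co-regulators, Nrip1, Ncoa1 and Ncoa2 were higher in ASCs, by 1.03, 0.82 and 0.74, and Ncoa1 and Ncoa3 were lower in injured FAPs, by log2 fold changes of −0.77 and −0.83. These are 50% and 33.3% called, beside 47.2% and 52.6% of all genes. The calls of the 3 in ASCs were lost with values scaled to the library total (0.46, 0.25 and 0.17), those of Ncoa1 and Ncoa2 also with quantile normalization (0.48 and 0.42) and that of Ncoa2 with a common 75th percentile (0.53).

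Of the known response genes 7 were tested. Rarres2 and Meis2 were higher in ASCs than in FAPs (log2 fold changes 1.63 and 1.09) and Rarres1 lower, and in injured FAPs Rai14 was higher (0.74) and Rarres1 lower. Rarres1 averaged 4.21 in ASCs, from 2 to 5 reads a library, 56.7 in FAPs and 8.51 in injured FAPs. The call of Meis2 in ASCs was lost with values scaled to the library total (0.53). Against FAPs 57.1% of the 7 were called in ASCs and 28.6% in injured FAPs, beside 47.2% and 52.6% of all genes.

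**Figure D5:**
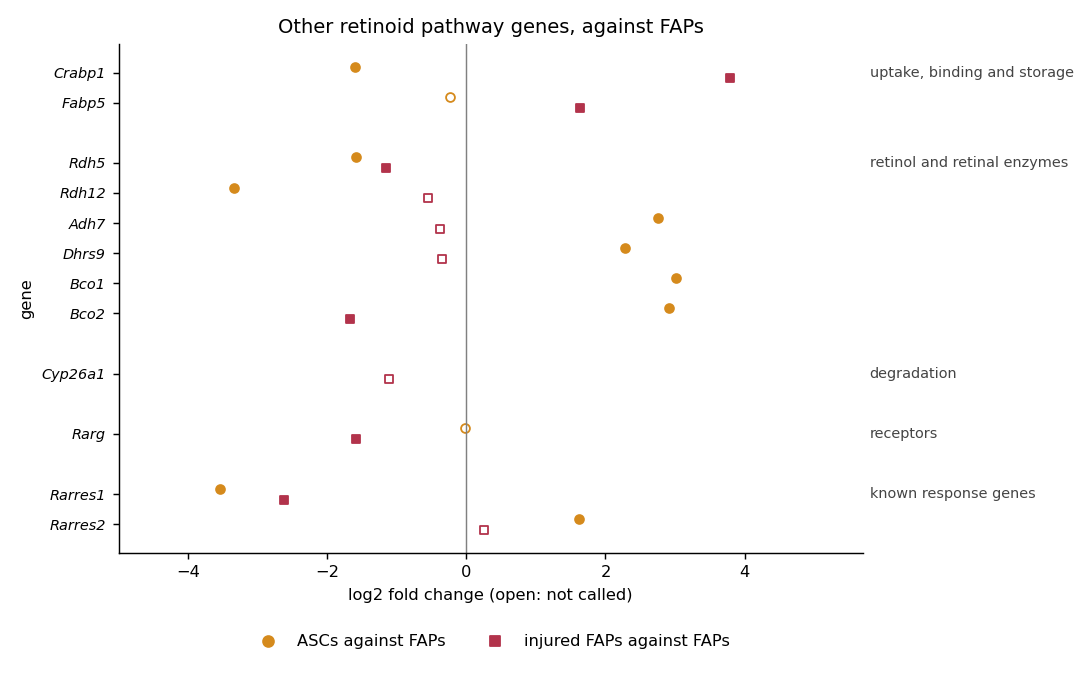
Log2 fold change against FAPs (horizontal axis) of the 12 other retinoid genes of 36 tested with a log2 fold change above 1.5 in size in either comparison, a limit chosen after the values were seen, grouped by role, for ASCs (circles) and injured FAPs (squares), with open marks for genes not called. Crabp1 lies at 3.79 in injured FAPs and at −1.60 in ASCs, on the log2(value + 1) scale. Cyp26a1 in ASCs and Bco1 in injured FAPs are not drawn, since those groups were at or under 3 reads in each library.

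Genes with a pattern most like each of the 9 were sought among genes with a mean of at least 100, by the root mean square difference of centred log2 values over the 8 libraries. Aldh1a1 was nearest to Tspan5 (0.079) and Ap3m2 (0.085), Aldh1a3 to Slc4a4 (0.19) and Gm4841 (0.20), and Aldh1a2 to Adamts6 (0.35) and Tns3 (0.36). Rdh10 was nearest to Psat1 (0.20) and Lif (0.24), and Dhrs3 to Mmp15 (0.16) and Spry4 (0.17). Crabp2 was nearest to Nol4l (0.28) and Fibin (0.30), Stra6 to Syt7 (0.25) and Tbx4 (0.27), Cyp26b1 to Mdga1 (0.22) and Fads2 (0.27), and Rarb to Gria3 (0.17) and Btbd11 (0.20). These differences are in log2 units, and Lif, for example, was at 2455 in ASCs, 688 in FAPs and 6889 in injured FAPs as group means.

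The scaling of the table matters for genes near the threshold. With values scaled to the library total, the median log2 fold change of all genes moved to −0.56 for ASCs and 0.08 for injured FAPs, each against FAPs, and to 0.72 for injured FAPs against ASCs, and the calls of all genes became 1575 higher and 6374 lower between ASCs and FAPs, in place of 3183 and 3233, and 7441 higher and 1669 lower between injured FAPs and ASCs, in place of 3405 and 3504. A common 75th percentile moved the medians to −0.20, −0.15 and 0.13 in the 3 comparisons, with 2452 higher and 4142 lower in ASCs against FAPs. Under the library total the 9 genes were 2 higher and 5 lower in ASCs against FAPs, 4 higher and 2 lower in injured FAPs against FAPs and 6 higher and 2 lower in injured FAPs against ASCs. Aldh1a1 then lost its call in ASCs against FAPs (0.49), which lies above the shifted median, and the other retinoid genes became 5 higher and 21 lower in ASCs against FAPs and 15 higher and 9 lower in injured FAPs against ASCs.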

How the data were processed

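The authors filtered the reads, used HISAT2 2.2.1 for alignment on mm10 and featureCounts of Subread 2.0.1 for counting, and deposited a signal per gene and library, named normalised counts, whose scaling is not described in the sources used here. Of the values 100% were whole reads divided by a factor of the library (tolerance 0.001), and the recovered reads were tested with edgeR 4.0.16 and DESeq2 1.42.0 as alternatives. The edgeR quasi-likelihood test called 6450, 7303 and 7000 genes and DESeq2 6412, 7227 and 6865 (ASCs with FAPs, injured FAPs with FAPs, injured FAPs with ASCs).

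Limma 3.58.1 in R 4.3.3 was fitted to log2(value + 1) with a trend, a mean per group over 8 libraries and 5 residual degrees of freedom. The p-values were adjusted after Benjamini-Hochberg across 13601 genes whose mean reached 10. The fit was also run on simulated data, whose outcome is not given here and on which no result rests. On this scale the fold change of a low gene is understated. The log2 fold change threshold of 0.58 is that of the study. Exon lengths came from GENCODE M21 (GRCm38), where 24918 genes matched by symbol. The genes named are the 9 genes, those of the retinoid list, of which 2 are not reported here by name and stay in its counts, and the 2 nearest genes of each. Those genes, the lists and the marker lists were chosen with earlier results of these data known. Reads of 1 library limit the precision of low genes, with 3 reads worth between 2.29 and 3.95 in the 8 libraries, and the Poisson intervals of the CD31+CD45+ library and the limits in reads cover counting error only, while the intervals of fold changes come from limma. The alternatives were the pseudocount, the filter, the scaling, the p threshold, which groups were fitted together, a replicate block, the omission of single libraries and the tool.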

Additional observations from a re-analysis of the deposited data

Results flagged for a closer look

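In the library of CD31+CD45+ cells, which no comparison used, 2 of the 9 genes lay above every library of NaCl-injected mice. Dhrs3 was at 5215 there (exact Poisson 95% interval 5039 to 5396, counting error only), against at most 2349 in ASCs and FAPs. Cyp26b1 was at 3487 (3344 to 3635), against at most 1867. In injured FAPs, which also came from glycerol-injected muscle, Dhrs3 was at most at 1201 and Cyp26b1 at most at 3301. The CD31+CD45+ library came from glycerol-injected muscle, has no replicate and differs from the NaCl libraries in cell type and in treatment, which cannot be told apart. Its 10 endothelial genes summed to 329753 and its 6 smooth muscle and pericyte genes to 86615.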

How the results depend on the processing

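Over 20 alternatives and 27 combinations of gene and comparison, 515 of 540 log2 fold changes kept their direction and their side of the threshold, and 19 combinations did so in each alternative. Of the rest 9 lost the call, 13 gained it and 3 changed sign. The sign changes were all of Rarb in injured FAPs against FAPs, which was not called in any setting: 0.048 with quantile normalization, 0.047 with values scaled to the library total, chosen after seeing the data, and between −0.56 and 0.40 with a library left out. The cause was not tested. The numbers called, higher and lower together, of the 9 genes, of the other retinoid genes and of all genes stayed within 1.5 times the values reported in each alternative. Split by direction they moved further with values scaled to the library total: in ASCs against FAPs the 9 genes went from 4 to 2 higher, the other retinoid genes from 11 to 5 higher and from 9 to 21 lower and all genes from 3183 to 1575 higher and from 3233 to 6374 lower. In injured FAPs against ASCs the other retinoid genes went from 7 to 15 higher and all genes from 3405 to 7441 higher and from 3504 to 1669 lower. With a mean of at least 50 the other retinoid genes went from 9 to 5 lower in ASCs against FAPs. Where a library was left out of the FAPs, the lone FAP library was assumed to vary like the other groups.

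Libraries with the same replicate number did not deviate together, with correlations of their deviations between −0.054 and 0.045 across genes, so the numbers do not pair the samples. With the replicate number as a block 8, 6 and 9 of the 9 genes were called, 19, 16 and 20 of the other retinoid genes and 6287, 7046 and 6861 of all genes. Depth limits the precision of the low genes Crabp2 and Stra6 in ASCs and of Aldh1a7 and Cyp26a1.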
